A study of Homo sapiens with 2 samples.

Results

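The let-7 and miR-98 guide arms are the 9 mature microRNAs cut from the 5' side of the let-7 and miR-98 hairpins, which carry the same seed and therefore count as 1 family. They were chosen by name from a table of 2656 mature microRNAs, and all 9 were found. Small RNA was sequenced in MDA-MB-231, a widely used human cell line from a triple-negative breast carcinoma. The shELOVL5 library came from cells transduced with an shRNA against ELOVL5, an elongase of polyunsaturated fatty acids, and the shLuc library from cells transduced with the control shRNA. There was 1 library per condition, so no value has a replicate check and no difference was tested against variation between cultures. Both groups are the same cell line and both carry an shRNA, and the labels give no parental, untransduced library. The labels' extraction text speaks of frozen tumor material, whereas the other labels describe the cell line. The measured table lists microRNAs, so the level of the ELOVL5 transcript was not analysed here.

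The let-7 family was first found in Caenorhabditis elegans as a regulator of developmental timing, and in mammals it accumulates as cells differentiate. Its guide arms, loaded into an Argonaute protein, repress messenger RNAs that pair with the seed, bases 2 to 8, among them RAS, HMGA2 and MYC transcripts. In many tumours the family is known as a brake on growth. LIN28 proteins can stop let-7 maturation by binding the precursor, with a GGAG motif in the loop region as one contact.

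The mature sequences are shown because they set which members can be told apart by a short read. They are RefSeq sequences (GRCh38.p14), found for all 9 members, with the seed in capitals.
hsa-let-7i-5p: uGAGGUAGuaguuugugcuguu
hsa-let-7a-5p: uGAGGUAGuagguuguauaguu
hsa-let-7f-5p: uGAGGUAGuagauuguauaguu
hsa-let-7g-5p: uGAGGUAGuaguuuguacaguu
hsa-let-7b-5p: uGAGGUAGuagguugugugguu
hsa-let-7d-5p: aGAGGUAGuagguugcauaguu
hsa-let-7e-5p: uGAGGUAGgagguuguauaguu
hsa-miR-98-5p: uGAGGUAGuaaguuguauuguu
hsa-let-7c-5p: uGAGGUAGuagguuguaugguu

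All 9 members are 22 bases long and share 14 of these positions, including the whole seed GAGGUAG. The other 8 positions vary, namely base 1 and 7 positions from base 9 onwards. Counted from 1 at the 5' end, and with the base of the first-named member first, let-7a differs from let-7c by A19G, from let-7e by U9G and from let-7f by G12A, and let-7b differs from let-7c by G17A. These are the 4 of 36 pairs that differ by a single base. The pair farthest apart, let-7d and let-7i, differs at 6 positions. How the authors treated reads that match several members is not given in the sources used here, so counts of members that differ by a single base may be shared in part.

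The seed is rare among human microRNAs. In the RefSeq table, 11 of 2370 mature names (0.464%) carry GAGGUAG at bases 2 to 8, the 9 members and a pair of short microRNAs shown here for comparison.
hsa-miR-4458: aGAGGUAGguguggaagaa
hsa-miR-4500: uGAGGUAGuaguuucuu
hsa-miR-4458 had 1 count in shELOVL5 and 3 in shLuc. hsa-miR-4500 was at 0 counts throughout. With 3 counts taken as the limit of a zero, this allows a level of up to 0.435 CPM in shELOVL5 cells and of up to 0.427 CPM in shLuc cells, where CPM are scaled counts per 1000000 counts. Among names with a RefSeq sequence, nearly all counts with this seed therefore belonged to the 9 members. Of the 2656 mature microRNAs counted, those without a RefSeq sequence were not searched.

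The libraries held 6811811 microRNA counts in shELOVL5 and 7109272 in shLuc. CPM were computed with TMM factors, which assume that most microRNAs are level between libraries. A total of 191 microRNAs were expressed, meaning a mean of at least 50 CPM before TMM scaling and at least 100 counts over both libraries, and all 9 members were among them. The microRNAs known to be abundant in mesenchymal or basal breast cancer cells (miR-221, miR-222, miR-100 and miR-125b) made up 30.8% of the shELOVL5 library, against 33.6% of the shLuc library. Most of that sum was miR-100-5p. The ratios of miR-221-3p (0.973), miR-222-3p (0.894) and miR-100-5p (0.868) lay below 1, and that of miR-125b-5p (1.24) above it. The 6 epithelial ones (the miR-200 family and miR-205) made up 0.0392% of shELOVL5 and 0.0294% of shLuc, a ratio of 1.30 (1.23 to 1.38). Most of these counts were miR-200b-3p, with 1626 in shELOVL5 and 1265 in shLuc (ratio 1.31). miR-200a-3p stood at 1.71 and miR-429 at 1.59, but miR-200c-3p at 0.981 (0.860 to 1.12). miR-141-3p had only 7 counts in shELOVL5 and 3 in shLuc. The 6 blood cell markers made up 0.0335% of shELOVL5 and 0.0394% of shLuc, nearly all of it miR-486-5p with 2146 counts in shELOVL5 and 2788 in shLuc. Against that sum, miR-142-5p had 84 counts in shELOVL5 and 6 in shLuc (ratio 14.3, 6.28 to 39.9), and miR-142-3p had 45 in shELOVL5 and 2 in shLuc (22.9, 5.98 to 195). The 4 markers of stroma and endothelium made up 0.0766% of shELOVL5 and 0.0625% of shLuc. Nearly all of this was miR-126-3p, with 5175 counts in shELOVL5 and 4394 in shLuc. In the same order, miR-143-3p had 11 and 12 counts, miR-145-5p 3 and 2, and miR-199a-3p 32 and 32. Of these lists, miR-223-3p was at 0 in both libraries and miR-150-5p at 0 in shLuc, and miR-205-5p, which defines mammary basal epithelium, had 3 counts in shELOVL5 and 2 in shLuc. The part of these lists in the let-7 values was not tested.

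The let-7 guide arms were among the main microRNAs of these cells. Together they held 1206072 counts in shELOVL5 and 1193562 in shLuc. This was 17.7% of the shELOVL5 library and 16.8% of the shLuc library, and the exact binomial 95% intervals of both shares round to the same figures. On the TMM scale the summed level was 174866 CPM in shELOVL5 cells, against 169991 CPM in shLuc cells. The ratio of shELOVL5 over shLuc was 1.03 (95% counting interval 1.03 to 1.03). Here and below, ratios carry 95% intervals derived by the exact Clopper-Pearson method from how the 2 libraries divide the counts, and like those of shares they cover counting error only. They hold no variation between cultures, so a narrow interval at these depths does not show that a ratio would recur.

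The 9 members fell into an abundant and a less abundant group, and their order was the same in both libraries. The 4 most abundant, let-7i, let-7a, let-7f and let-7g, held 89.8% of the family's counts in shELOVL5 and 88.9% in shLuc. The other 5 held 10.2% in shELOVL5 and 11.1% in shLuc. All members are equally long, so CPM of different members can be set side by side. Ligation and amplification bias between sequences was not measured. Without read lengths, whether each read covered a whole microRNA was not checked. At each step down the order, the exact binomial intervals of the neighbours' shares lay apart in both libraries. The widest step was between let-7g and let-7b, 3.82-fold in shELOVL5 and 3.23-fold in shLuc, while let-7b stood 1.14-fold above let-7d in shELOVL5 and 1.35-fold above it in shLuc. let-7d stood 1.15-fold above let-7e in shELOVL5 and 1.14-fold in shLuc.

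**Figure D1:**
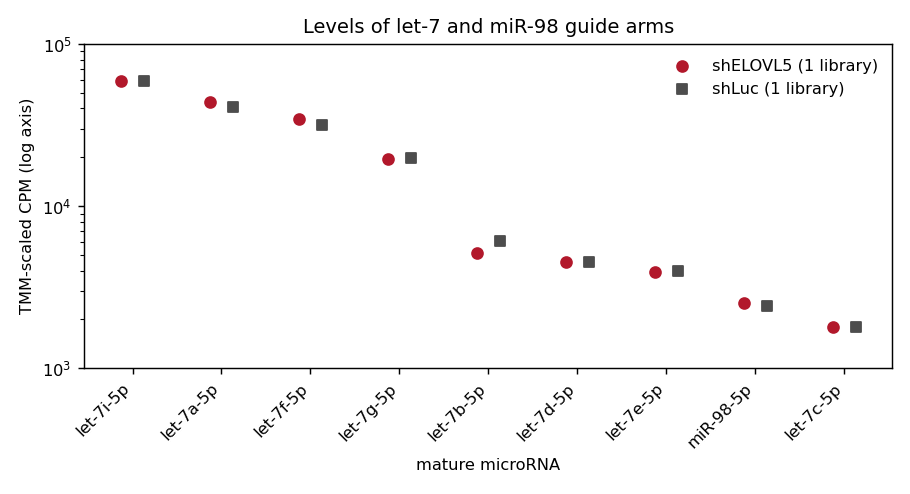
Level of each let-7 and miR-98 guide arm in TMM-scaled CPM on a log axis, with shELOVL5 as circles and shLuc as squares, 1 library each. The order is the same in both libraries, from let-7i at 59090 CPM in shELOVL5 and 58929 CPM in shLuc to let-7c at 1796 and 1801 CPM, with a gap below let-7g.

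hsa-let-7i-5p was the most abundant member. It reached 407551 counts, or 59090 CPM, in shELOVL5 cells, against 413762 counts, or 58929 CPM, in shLuc cells. It ranked 3rd of all microRNAs in both libraries, below miR-100-5p and miR-21-5p, the second of which is known to promote growth in carcinomas. Its ratio was 1.00 (0.998 to 1.01), with an interval that includes 1. Its hairpin lies on chromosome 12 at 62603686 to 62603769 (GRCh38, plus strand), in an intron of the lincRNA AC048341.1 and overlapping an exon of LINC01465 on the other strand.

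hsa-let-7a-5p ranked 4th in both libraries, with 302713 counts, or 43890 CPM, in shELOVL5 cells, against 287560 counts, or 40955 CPM, in shLuc cells. The ratio was 1.07 (1.07 to 1.08). The mature sequence is encoded at 3 loci, on chromosomes 9, 11 and 22, which its reads cannot tell apart. The table listed it under each precursor, and these entries differed by at most 23 counts in shELOVL5 and 179 in shLuc.

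hsa-let-7f-5p showed the highest ratio of the family. It reached 237272 counts, or 34402 CPM, in shELOVL5 cells, against 221548 counts, or 31554 CPM, in shLuc cells, a ratio of 1.09 (1.08 to 1.10). It ranked 7th in shELOVL5 and 8th in shLuc. The level of let-7f relative to let-7a, which no scaling can alter, was 0.784 in shELOVL5 and 0.770 in shLuc, so both members stood in nearly the same proportion in the libraries (ratio of the proportions 1.02, counting interval 1.01 to 1.03).

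The entries of let-7f under its precursors differed more than those of let-7a. The let-7f-1 entry had 232287 counts in shELOVL5 and 217036 in shLuc, and the let-7f-2 entry, which was the higher and was used, had 237272 and 221548. The let-7f-1 entry was thus lower by 4985 counts (2.1%) in shELOVL5 and by 4512 counts (2.04%) in shLuc. The guide arm is identical in both hairpins, but the bases that follow it are not. The guide with the next 6 bases in capitals is shown for both let-7f hairpins and for the let-7a hairpins.
let-7f-1 (chromosome 9): ugagguaguagauuguauaguuGUGGGG
let-7f-2 (chromosome X): ugagguaguagauuguauaguuUUAGGG
let-7a-1 (chromosome 9): ugagguaguagguuguauaguuUUAGGG
let-7a-2 (chromosome 11): ugagguaguagguuguauaguuUAGAAU
let-7a-3 (chromosome 22): ugagguaguagguuguauaguuUGGGGC
The 3 let-7a hairpins and let-7f-2 continue with U and let-7f-1 continues with G. Over all 12 hairpins that encode a member, 8 continue with U and 4 with G, namely let-7f-1, let-7i, let-7e and miR-98. Whether reads that run past the guide's 3' end gave the difference between the let-7f entries was not tested, since the table holds no read lengths.

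hsa-let-7g-5p reached 135294 counts, or 19616 CPM, in shELOVL5 cells, against 138373 counts, or 19707 CPM, in shLuc cells, a ratio of 0.995 (0.988 to 1.00). Its hairpin lies on chromosome 3 at 52268278 to 52268361 (minus strand) in an intron of WDR82, which encodes a subunit of a histone methyltransferase complex. Set against let-7i, with which it shares U at base 12 and C at base 18, its level was 0.332 in shELOVL5 and 0.334 in shLuc. The let-7g and let-7i levels were thus in the same proportion in both libraries to within counting error (ratio of the proportions 0.993, 0.984 to 1.00).

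hsa-let-7b-5p departed most from level. It reached 35419 counts, or 5135 CPM, in shELOVL5 cells, against 42870 counts, or 6106 CPM, in shLuc cells, and the ratio was 0.841 (0.829 to 0.853), or 1.19-fold lower in shELOVL5. As a share of the family, let-7b took 2.94% in shELOVL5 (2.91 to 2.97%) and 3.59% in shLuc (3.56 to 3.63%). Its hairpin lies on chromosome 22 at 46113686 to 46113768 (plus strand), on an exon of its host transcript MIRLET7BHG. The passenger arm of the same hairpin, hsa-let-7b-3p, had 423 counts in shELOVL5 and 553 in shLuc, a ratio of 0.779 (0.684 to 0.885). Both arms of the let-7b hairpin were therefore lower in shELOVL5, with intervals that overlap.

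Set against its nearest relatives, the same let-7b counts gave lower proportions in shELOVL5, which do not depend on scaling. They are no separate evidence, and reads shared with let-7c could alter them. The level of let-7b over let-7c, from which it differs by a single base, was 2.86 in shELOVL5 and 3.39 in shLuc (ratio of the proportions 0.844, 0.820 to 0.868). Its level over let-7a was 0.117 in shELOVL5 and 0.149 in shLuc (0.785, 0.773 to 0.797). let-7c itself, which shares a G at base 19 with let-7b, stood at a ratio of 0.997.

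hsa-let-7d-5p, the only member that begins with A, reached 30971 counts, or 4490 CPM, in shELOVL5 cells, against 31862 counts, or 4538 CPM, in shLuc cells, a ratio of 0.990 (0.974 to 1.01). hsa-let-7e-5p, the only one with G at base 9, reached 27010 counts, or 3916 CPM, in shELOVL5 cells, against 28030 counts, or 3992 CPM, in shLuc cells, a ratio of 0.981 (0.965 to 0.998). hsa-let-7c-5p was the least abundant, with 12388 counts, or 1796 CPM, in shELOVL5 cells, against 12648 counts, or 1801 CPM, in shLuc cells, a ratio of 0.997 (0.973 to 1.02). All 3 stood within a few percent of level, and only the interval of let-7e left out 1, though let-7e, like the other members of this trio, stood above 1 with total count scaling (log2 ratio 0.0082).

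hsa-miR-98-5p, the member with a name of its own, reached 17454 counts, or 2531 CPM, in shELOVL5 cells, against 16909 counts, or 2408 CPM, in shLuc cells. Its ratio of 1.05 (1.03 to 1.07) lay above 1. miR-98 and let-7f-2 are encoded 850 bases apart in an intron of HUWE1, an E3 ubiquitin ligase gene, on the X chromosome at 53556223 to 53556341 and 53557192 to 53557274 (minus strand). The miR-98 and let-7f guide arms were on the same side of 1. However, let-7f is also encoded on chromosome 9, so its ratio cannot be assigned to the X locus.

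No member reached a 2-fold difference. Of 9 members, 0 were at least 2-fold higher, against 1.57% of the 191 expressed microRNAs, and 0 were at least 2-fold lower, against 0%. With a ratio of at least 25% above 1, or of 0.8 and below, the counts were again 0 in each direction, against 9.95% of expressed microRNAs higher and 9.95% lower. Within 1.1-fold of level stood 8 of the 9 members, all but let-7b (all but let-7b and let-7f with total count scaling), against 38.7% of expressed microRNAs. Of the members, 3 had counting intervals above 1 (let-7a, let-7f and miR-98), against 31.9% of the expressed microRNAs, and 2 had intervals below 1 (let-7b and let-7e), against 41.9%. With total count scaling, a count added after seeing the data, 5 lay above 1, let-7g and let-7i added, against 37.7%, and 1 below, let-7b, against 35.1%. DESeq2 size factors, likewise added, were 1 in both libraries and so left the counts unscaled. With them, the same 3 as with TMM lay above 1, against 30.9%. Below 1 lay 5, namely let-7b, let-7d, let-7e, let-7g and let-7i, against 49.7%. let-7a, let-7f and miR-98 above 1 and let-7b below it were thus the sides common to these 3 settings. The median log2 ratio of the members was -0.0042, which turned positive (0.032) with total count scaling, and that of the 191 expressed microRNAs -0.033.

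**Figure D2:**
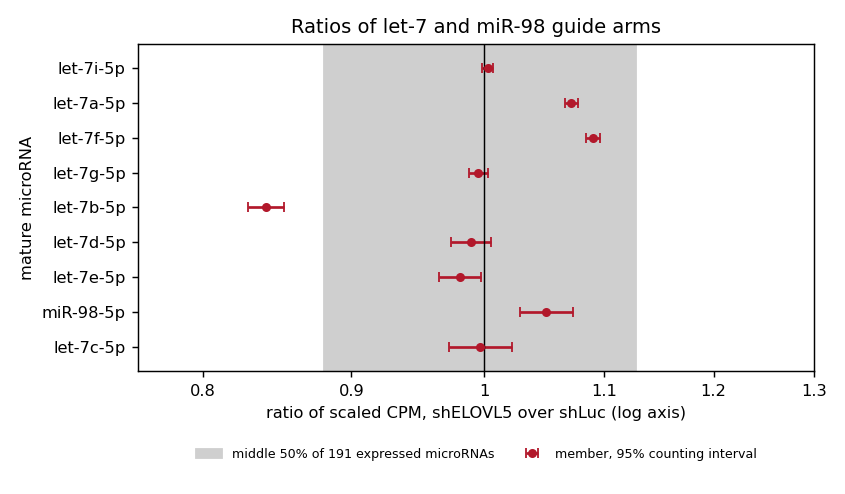
Ratio of scaled CPM, shELOVL5 over shLuc, on a log axis for each guide arm in order of abundance, with 95% counting intervals. The grey band holds the middle 50% of the expressed microRNAs, from 0.881 to 1.13, and let-7b at 0.841 is the only member outside it.

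Counting error is smallest for abundant microRNAs, so the members were also set beside the 44 other microRNAs whose mean level was at least that of let-7c, 1799 CPM. Of these 44, 15 stood within 1.1-fold (34.1%), 3 had a ratio at least 25% above 1 and 7 a ratio of 0.8 or below. Their log2 ratios ran from -0.64 to 0.88 with an SD of 0.29, while those of the 9 members ran from -0.25 to 0.12 with an SD of 0.11 (counting interval 0.10 to 0.12), or 0.045 when the 5 members linked by single-base differences were summed into 1 group. The members are not independent, since they may share reads, so this is a description of the libraries. The 16 other microRNAs that lay next above or below a member in mean level had ratios from 0.703 to 1.21, with a median of 0.942, and 9 of them stood within 1.1-fold. Those farthest from level were mostly lower. let-7g lay just above miR-27b-3p, an abundant regulator of lipid genes, at a ratio of 0.772 (0.766 to 0.778), and let-7e just above miR-182-5p at 0.771 (0.757 to 0.785). miR-98 lay just below miR-183-5p, of the same cluster as miR-182, at 0.703 (0.688 to 0.718).

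**Figure D3:**
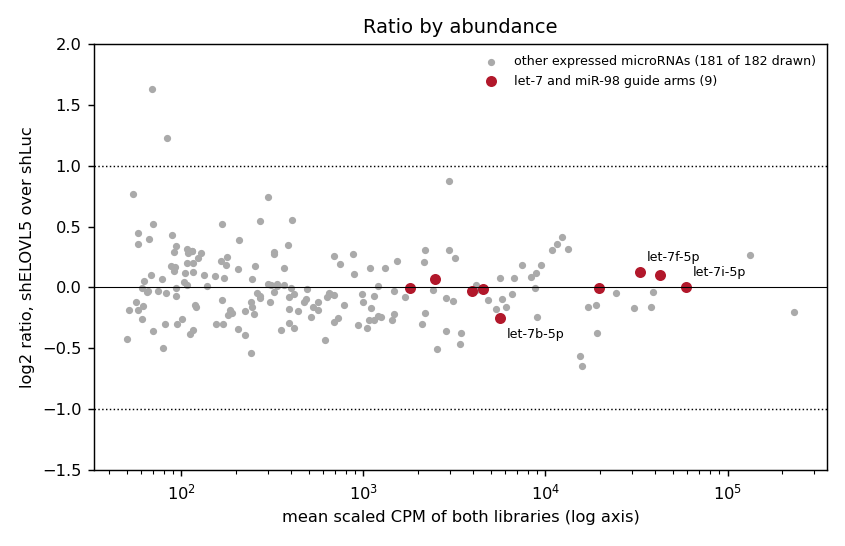
Log2 ratio of shELOVL5 over shLuc against the mean scaled CPM of both libraries on a log axis, for the expressed microRNAs, with the 9 guide arms in red and dotted lines at 2-fold. One other microRNA lies above the drawn range. The guide arms lie close to 0 over their whole range of abundance, with let-7b the lowest at -0.25.

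Other families with a shared seed gave a scale for the spread among members. The 5 members of the miR-30 family, all expressed, were centred on a log2 ratio of -0.0082 (median) with an SD of 0.11 (0.084 to 0.14). The 3 expressed of 6 members of the miR-15/16 family, which restrains the cell cycle and BCL2, had a median of 0.12 and an SD of 0.12 (0.075 to 0.16). The 5 expressed of 6 members of the growth-promoting miR-17 family had a median of 0.29 and an SD of 0.20 (0.15 to 0.24). None of these differences was tested. The let-7 value of 0.11 may depend on how reads were divided between members that differ by a single base, which was not tested. It was 0.045 with those members summed, but let-7a and let-7f hold most of that sum. The lower value therefore does not show that reads were shared. The expressed microRNAs whose ratio lay nearest to that of the summed family were miR-425-3p at 1.03, miR-625-3p at 1.02 and miR-324-3p at 1.04. With 2 libraries this likeness rests on 1 ratio each, and 46 of the 182 expressed non-members (25.3%) stood within 0.1 of the family's log2 ratio.

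The 12 hairpins lie at 8 loci, and 6 of these hold more than 1 of the microRNAs described here. On chromosome 9, let-7a-1 (94175957 to 94176036), let-7f-1 (94176347 to 94176433) and let-7d (94178834 to 94178920) lie on the plus strand in an intron of the lincRNA AL158152.2. Their guide arms stood at 1.07, 1.09 and 0.990. On chromosome 22, let-7a-3 (46112749 to 46112822) and let-7b lie 863 bases apart on exon sequence of MIRLET7BHG, with guide arms at 1.07 and 0.841. Since let-7a and let-7f are each encoded at several loci with the same guide arm, their ratios cannot be assigned to any of these loci.

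At the remaining 3 shared loci a let-7 hairpin sits beside microRNAs of other families. The guide arms let-7e and let-7c, each encoded at 1 locus, stood nearer to level than their neighbours. let-7a stood at 1.07, but its ratio cannot be assigned to the chromosome 11 locus. On chromosome 19, let-7e (51692786 to 51692864) lies in an intron of SPACA6, 104 bases from miR-99b and 389 bases from miR-125a. miR-99b-5p had 85758 counts in shELOVL5 and 128680 in shLuc, a ratio of 0.678 (0.673 to 0.684), and miR-125a-5p had 56651 and 68370, a ratio of 0.844 (0.834 to 0.853). let-7e, cut from the same stretch, stood at 0.981. Its passenger arm, hsa-let-7e-3p, had 381 counts in shELOVL5 and 463 in shLuc, a ratio of 0.838 (0.730 to 0.961).

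On chromosome 21, let-7c (16539828 to 16539911) lies in an intron of MIR99AHG, 658 bases from miR-99a. miR-99a-5p had 34521 counts in shELOVL5 and 39799 in shLuc, a ratio of 0.883 (0.870 to 0.896), while let-7c stood at 0.997. The let-7c passenger arm, hsa-let-7c-3p, had only 46 counts in shELOVL5 and 25 in shLuc, a ratio of 1.87 (1.13 to 3.18). On chromosome 11, let-7a-2 (122146522 to 122146593) lies in an intron of MIR100HG, 5635 bases from miR-100. miR-100-5p, the most abundant microRNA of both libraries, had 1488025 counts in shELOVL5 and 1745204 in shLuc, a ratio of 0.868 (0.866 to 0.870). miR-125b-5p, which is encoded near both let-7a-2 and let-7c, had 102053 counts in shELOVL5 and 83451 in shLuc, a ratio of 1.24 (1.23 to 1.26). The neighbours thus departed from level in both directions, 4 of 5 below and 1 above.

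**Figure D4:**
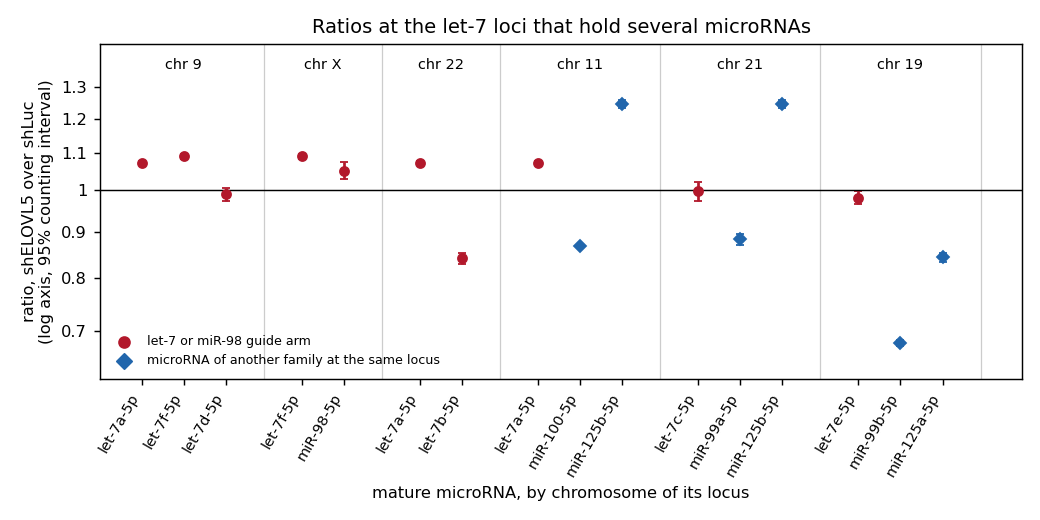
Ratios, shELOVL5 over shLuc, on a log axis with 95% counting intervals at the 6 loci that hold several of these microRNAs, with let-7 and miR-98 guide arms as red circles and microRNAs of other families as blue diamonds. let-7c and let-7e lie near 1. Of their neighbours, miR-99a, miR-99b and miR-125a lie below it, and miR-125b, drawn beside let-7c, lies above it. Mature microRNAs with several loci are drawn at each with their whole count.

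The 11 passenger arms, cut from the other side of the same hairpins, were rare. They summed to 7322 counts in shELOVL5 and 7560 in shLuc, a ratio of 0.986 (0.955 to 1.02). Most of that sum was let-7d-3p, with 4647 counts in shELOVL5 and 4943 in shLuc. Of the 11, 6 were expressed, with ratios from 0.779 for let-7b-3p to 1.32 for let-7a-2-3p. Below the expression limit, let-7i-3p stood at 1.60 (1.24 to 2.07), let-7c-3p at 1.87 (1.13 to 3.18) and let-7f-2-3p at 2.69 (1.42 to 5.39). The intervals of let-7g-3p and miR-98-3p, also below that limit, included 1.

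The GGAG motif was searched downstream of the guide on the transcribed strand of each hairpin, because LIN28 proteins are known to contact it. It was found in 9 of the 12 hairpins (75%), against 18.9% of the 798 human hairpins with an annotated 5p arm. The let-7i and let-7b hairpins are shown as examples with and without it, GGAG in capitals.
let-7i (chromosome 12): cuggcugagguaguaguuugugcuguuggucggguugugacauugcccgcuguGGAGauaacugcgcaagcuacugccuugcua
let-7b (chromosome 22): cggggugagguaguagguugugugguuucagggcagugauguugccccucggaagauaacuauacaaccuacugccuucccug
The 3 hairpins without these letters were let-7a-3, let-7b and miR-98. Among members all of whose hairpins lack them, let-7b stood at 0.841 and miR-98 at 1.05, on opposite sides of 1. No value for LIN28 was measured.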

How the data were processed

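Per the labels' protocols, RNA was isolated with the miRNeasy Micro chemistry of Qiagen, NEBNext reagents served for the small RNA libraries, and sequencing was single-end on a NextSeq. The deposited values are raw read counts for every mature microRNA under each of its precursors, left unnormalized by the authors. The submitters' processing notes list FastQC (0.11.9), cutadapt (2.10) and Bowtie (1.1.1). How reads were counted is not given in the sources used here. No molecular identifiers are described, so PCR copies may be counted more than once.

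The table had 2886 lines for 2656 mature names, and the highest entry per library was kept for each name. Counts were scaled with TMM (edgeR 4.0.16, R 4.3.3). The factors were 1.01 in shELOVL5 and 0.988 in shLuc. Ratio intervals are exact Clopper-Pearson (SciPy 1.17.1), those of proportions between members are Wald intervals on the log scale, and that of the SD is from the delta method. Positions and sequences are from RefSeq (GRCh38.p14), and host genes from GENCODE release 29. The genes named follow a rule: all members, microRNAs of the same seed, passenger arms as a summary, cluster neighbours, neighbours in level and the 3 nearest ratios. Of the neighbours in level, those printed by name were chosen after their values were seen. Single passenger arms are also printed by name, which goes beyond that rule, and not every arm is printed. The alternatives were other scalings, filters, an added 5 CPM, other uses of the precursor entries, a smaller size rule, merged members and thinning of shLuc. The members and lists were chosen with earlier results of these data known. On simulated counts for shELOVL5 over shLuc, with 3-fold changes, the 2-fold rule recovered 100% of 94 changed microRNAs. It called 0 of 96 unchanged ones among 190 expressed. Of the intervals, 94.2% held the ratio with which the libraries were drawn, put on the same estimated TMM scale. An error in the scaling could therefore not show in that share. That simulation had counting error only. Its changes were larger than any seen among the members, so it does not show how differences of their size would be called.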

Additional observations from a re-analysis of the deposited data

How the results depend on the processing

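No paired analysis was possible because there was only 1 library of each kind, which also left none to omit. The counts of members at least 2-fold higher and lower stayed at 0 and 0 under each alternative run, a rule of 25% above 1 or 0.8 and below included. The summed ratio of 1.03 was 1.05 with total count scaling, 1.01 with DESeq2 1.42.0 size factors, and 1.06 with totals that leave out miR-100-5p and miR-21-5p, a setting chosen after seeing the data. It was 1.04 with precursor entries summed, which counts let-7a and let-7f more than once by construction, and 1.04 without let-7i. The SD of the members' log2 ratios, 0.11, does not depend on scaling and was 0.045 when let-7a, let-7b, let-7c, let-7e and let-7f, linked by single-base differences, were summed into 1 group. Of 90 pairs of a member and a setting, 25 left the counting interval, all 25 under a change of scaling. Total count scaling raised each log2 ratio by 0.036, and let-7c, let-7d, let-7e and let-7g then stood above a ratio of 1. DESeq2 size factors, which were 1 in both libraries and so left the counts unscaled, lowered each by 0.026 and put let-7i below 1, as did summed precursor entries. let-7b stayed below 1, and let-7a, let-7f and miR-98 above it, in each setting run. Depth does not limit these abundant members, whereas without replicates no comparison can be tested.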
